A study of Mus musculus with 3 samples.

Results

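Cartilage cells were picked out of dissociated mouse soft palate by their transcripts. A barcode, the tag that stands for 1 droplet and usually 1 cell, counted as a cartilage cell when it held at least 5 unique molecular identifiers (UMIs, each counting 1 captured RNA molecule) of Col2a1 and at least 3 UMIs summed over Acan, Col9a1, Col9a2, Col9a3 and Matn1, with Epcam, Cdh5, Tyrobp and Myog all at 0. The cells were thus chosen by measured counts of these 10 genes. Barcodes under 500 genes or over 10% mitochondrial UMIs had been set aside. The gate took 178 of 14049 kept barcodes (15573 deposited), of which control 1 gave 5, control 2 gave 6 and the mutant library gave 167.

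The series compared soft palate, taken from the hindmost stretch of the palate, of C57BL/6 mouse embryos at E14.5. The mutant carried Osr2-Cre;Alk5fl/fl. Alk5 is another name of Tgfbr1, the type I TGF-β receptor, and Osr2-Cre recombines floxed alleles in cells that express Osr2 or descend from such cells. In the study's reporter mice it marked palatal mesenchyme and not muscle cells. Which cell types lost the receptor was not measured in these libraries. The labels call the other embryos control, and the study's legends describe controls as carrying 1 or 2 floxed Tgfbr1 alleles, without saying which of them entered which library. Each library was 1 droplet preparation (10X Chromium 3′ v2), and there was 1 mutant library, so differences between genotypes had no replicate on the mutant side. The labels do not state whether the control libraries came from separate embryos. The control 1 library totalled 22624711 UMIs, control 2 27814907 and the mutant 63505144. Barcode sequences recurred between libraries 18, 34 and 49 times for the control 1 and 2, control 1 and mutant, and control 2 and mutant pairs. None of the recurring barcodes was a cartilage cell in both libraries of a pair.

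Cartilage is made by chondrocytes that arise from condensed mesenchyme under the transcription factor SOX9 and its partners SOX5 and SOX6. They surround themselves with type II, IX and XI collagen fibrils and with aggrecan, a proteoglycan whose chondroitin sulfate chains hold water and which is anchored to hyaluronan by the link protein encoded by Hapln1. In skeletal elements that ossify, chondrocytes stop dividing, turn on Ihh and then Col10a1, and enlarge, while a fibrous perichondrium rich in type I collagen encloses the element. The soft palate itself is a muscular flap; cartilage forms nearby, in the cranial base and the auditory tube.

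The 6 gate genes set membership, so their values are only a description. Col2a1 (chr15:97975602-98004695, minus strand, GRCm38), which encodes the chain of type II collagen, ran from 1.13 to 124 UMIs per 10000 over the 167 mutant cells. Those cells held 47.7% of all Col2a1 UMIs in kept mutant barcodes, against 10.4% for the gated cells of control 1 and 5.69% for those of control 2. In each library most Col2a1 UMIs lay outside the gate. Of the mutant cells outside the gate, 24.3% had at least 1 Col2a1 UMI, and so did 20.8% of Cdh5-positive endothelial cells (median 7853 UMIs), 11.4% of Tyrobp-positive myeloid cells (median 6077 UMIs) and 35.3% of Epcam-positive epithelial cells (median 11934 UMIs). A share of cells with a single UMI was therefore not read as expression, and the source of those UMIs was not tested. Near the threshold, 12 mutant members had 5 or 6 Col2a1 UMIs, while 33 mutant cells with 3 or 4 passed the other criteria and stayed outside. Another 107 mutant cells had 5 or more Col2a1 UMIs with too little of the other cartilage genes, and 53 had an exclusion gene, most often Epcam (35 cells) or Cdh5 (20 cells).

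Gated cells made up 0.236% of the kept barcodes of control 1 (95% Clopper-Pearson interval 0.0767 to 0.550), 0.157% of those of control 2 (0.0576 to 0.341) and 2.06% of those of the mutant (1.76 to 2.39). The intervals cover counting error only. Because the gate asks for a number of UMIs and not a share, deep barcodes pass more easily, and kept barcodes had a median of 8238 UMIs in control 1, 5286 for control 2 and 5272 for the mutant. After every barcode was thinned to 2000 UMIs, no control cell passed, of 1986 and 3556 barcodes deep enough, whereas 95 of 7585 mutant barcodes (1.25%, 1.01 to 1.53) did. Kept mutant barcodes also carried more RNA of neurons, 482 CPM (UMIs per 1000000) summed over 7 neuronal markers against 99.9 and 73.5 in the controls, led by Stmn2, and less of muscle, 78.4 CPM against 746 and 228. Tissue outside the palate caught in dissection and a difference between genotypes cannot be told apart in these libraries.

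**Figure D1:**
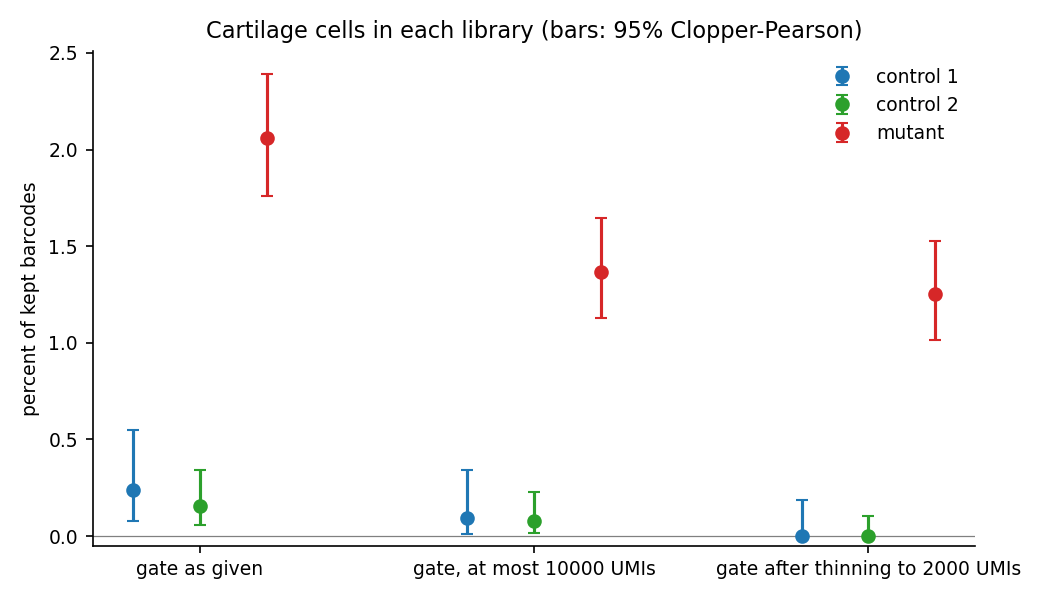
Percent of kept barcodes (y axis) that passed the cartilage gate in each library, with 95% Clopper-Pearson intervals, for the gate as given, for members with at most 10000 UMIs and for barcodes thinned to 2000 UMIs. The mutant library lay above both controls in each setting, at 2.06%, 1.37% and 1.25%.

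Depth divided the mutant cells. The smallest passing number of gate UMIs is a sizeable share of a shallow cell and a trace of a deep one. Among 43 members with up to 5000 UMIs the 6 gate genes took a median of 102 UMIs per 10000, and among 68 members with over 5000 and up to 10000 UMIs it was 100.1. The median was 28.2 in 26 members with over 10000 and up to 20000 UMIs and 6.72 in 30 members above 20000. The 25 cartilage matrix genes that the gate did not use followed the same course, with medians of 105, 102, 31.8 and 12.0 UMIs per 10000. For those 25 genes, 42 of 43, 64 of 68, 18 of 26 and 5 of 30 members lay above the 99th percentile of ungated mutant cells of the same depth. Values are therefore given for the 111 mutant members with at most 10000 UMIs (626494 UMIs in sum), called shallow members, beside the 56 deeper ones (1394341 UMIs). This division was chosen after the data had been seen.

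**Figure D2:**
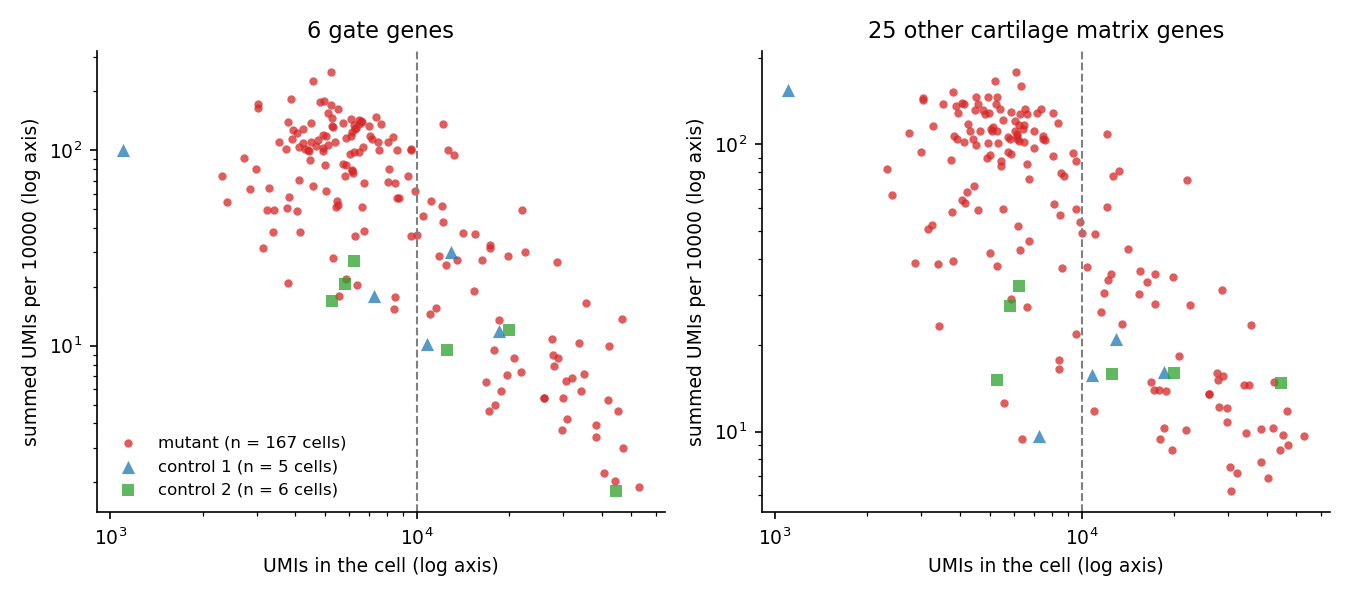
Each point is 1 gated cell, with its UMIs on the x axis and the summed UMIs per 10000 of the 6 gate genes (left) or of 25 other cartilage matrix genes (right) on the y axis, all axes logarithmic, and a dashed line at 10000 UMIs. Mutant cells form a group near 100 per 10000 below the line and trail down to 1.89 for the gate genes above it, and most control cells lie among the low points.

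Of the shallow members 94.6% (105 of 111) had UMIs of at least 3 of the 5 cartilage genes Hapln1, Matn4, Mia, Col11a2 and Cnmd. The share was 0.174% in ungated cells of that depth. None of the 5 is in the gate. All 5 are among the genes ranked highest by their ratio in these same cells, so the shares are only a description and not support for the label. The deep members were mixed. Of the 56, 67.9% met the same measure against 4.75% of deep ungated cells, but 32.1% also held 2 or more UMIs of Sp7, the osteoblast factor, and 39.3% held 2 or more of Scx, the tendon factor. In deep ungated cells those shares were 19.7% and 24.9%, in shallow members 0.901% and 1.80%, and in shallow ungated cells 2.78% and 4.59%. A deeper cell passes such a count more easily. Median depth was 21891 UMIs in deep members, 15255 in deep ungated cells and 5457 in shallow members. Whether a deep barcode was 1 cell or several was not tested. The doublet caller Scrublet gave the deep members a median score of 0.0939, the shallow members 0.0342 and all kept mutant barcodes 0.0510. Leaving out its highest scores removed 26.8% of deep members, 18.7% of deep ungated mutant cells, 15.3% of shallow members and 7.35% of all kept mutant barcodes. The last share includes deep barcodes, so that of shallow ungated cells was lower still, and shallow members stood further above cells of their depth.

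The 11 control cells were too few for averages and are described by their counts. Mia, a secreted protein of cartilage and melanocytes, had 0 UMIs in all 11 control cells. It was present in 164 of 167 mutant members, including each of the 111 shallow ones, where the lowest, median and highest were 3.15, 19.5 and 47.6 UMIs per 10000. Outside the gate Mia was found in 8.19% of control 1 cells, 2.78% of control 2 cells and 16.01% of mutant cells. Hapln1 was found in 10 of the 11 control cells, with at most 7 UMIs in any of them. Sox9, which the gate did not use, had UMIs in 9 of the 11. Ibsp, a bone matrix gene, had UMIs in 6 of the 11 control cells, which are of all depths, and in 3 of the 111 shallow and 15 of the 56 deep mutant members. The control cell nearest the mutant group, at 100.2 gate UMIs per 10000, had 1098 UMIs in all. Of these 17 were from the 25 other matrix genes (154.8 per 10000, above the shallow mutant medians), with 3 UMIs of Snorc, 2 of Col27a1 and 1 of Col11a1 and none of Hapln1, Matn4, Mia or Sox9. The account below is of the mutant library.

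Over all 167 members summed, 73 of 3066 genes (2.38%) were at least 2-fold higher than in the 7944 ungated mutant cells and 40 (1.3%) at least 2-fold lower, counting genes with 50 CPM on one side or the other. Among the 111 shallow members set against 6323 ungated cells of the same depth range, 240 of 2976 genes (8.06%) were at least 2-fold higher and 261 (8.77%) lower, with a median log2 ratio over all tested genes of -0.07. In the deep members against 1621 deep ungated cells the shares were 0.56% higher and 1.21% lower. No test was made, because cells of 1 library are not replicates, so every ratio below describes this library. A gene that reached 50 CPM only in the members had to be higher there, and one that reached it only in the ungated cells had to be lower, so the counts and medians of the lists below are partly set by that minimum and are not support for a direction. In shallow members the gate genes, which do not count as findings, stood at 4522 CPM for Col2a1, 1692 for Col9a3, 1010.4 for Col9a1, 892 for Matn1, 742 for Col9a2 and 701 for Acan, the aggrecan core protein.

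Matrix genes led the profile. Of 25 cartilage matrix genes outside the gate, 14 reached 50 CPM on either side, and 13 of these were at least 2-fold higher in shallow members and 1 lower, with a list median log2 ratio of 6.28. Of the 14, 12 reached 50 CPM only in the members. The 2 that reached it in ungated cells were Col11a1, which was higher, and Vcan, which was lower. Hapln1 (chr13:89539796-89611652, plus strand) stood at 1127 CPM in shallow members (Poisson 95% interval 1045 to 1213), 126 in deep members and 4.47 in shallow ungated cells, a 252-fold difference between the first and the last. Per cell its lowest, median and highest were 0, 10.7 and 39.6 UMIs per 10000 among shallow members. Thinned to 3500 UMIs per cell, Hapln1 was detected in 83.8% of shallow members (75.1 to 90.5) and in 1.56% of shallow ungated cells. Most shallow members (100 of 111 unthinned, against 111 of 6323 ungated) thus carried the link protein transcript. Among Cdh5-positive endothelial cells of any depth Hapln1 was found in 12.99% in the mutant, 15.3% in control 1 and 18.8% in control 2.

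Type XI collagen, which seeds the type II fibril, was represented by Col11a1 at 1960.1 CPM and Col11a2 at 779 CPM in shallow members, against 144 and 6.06 CPM in shallow ungated cells. Col27a1, a further fibrillar collagen of cartilage, stood at 626 against 41.6 CPM. The matrilins, adaptor proteins between collagen and aggrecan, gave 723 against 15.4 CPM for Matn4 and 276 against 0.236 CPM for Matn3. Other genes of secreted or membrane proteins known mainly from cartilage were also higher. Snorc, a chondrocyte membrane proteoglycan, stood at 407 CPM (359 to 460) against 0.336, a 1209.9-fold difference resting on 10 UMIs in ungated cells. Cytl1, a cytokine-like protein, stood at 511 against 1.11 CPM. Cnmd, which encodes the angiogenesis inhibitor chondromodulin, stood at 346 against 1.85 CPM. Vcan, the aggrecan relative of loose mesenchyme, was the lower gene, at 73.4 against 176 CPM. Mia shares its strand and locus with the annotated gene Gm21983, so its count of 1842 CPM (41.7 in ungated cells) is uncertain.

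**Figure D3:**
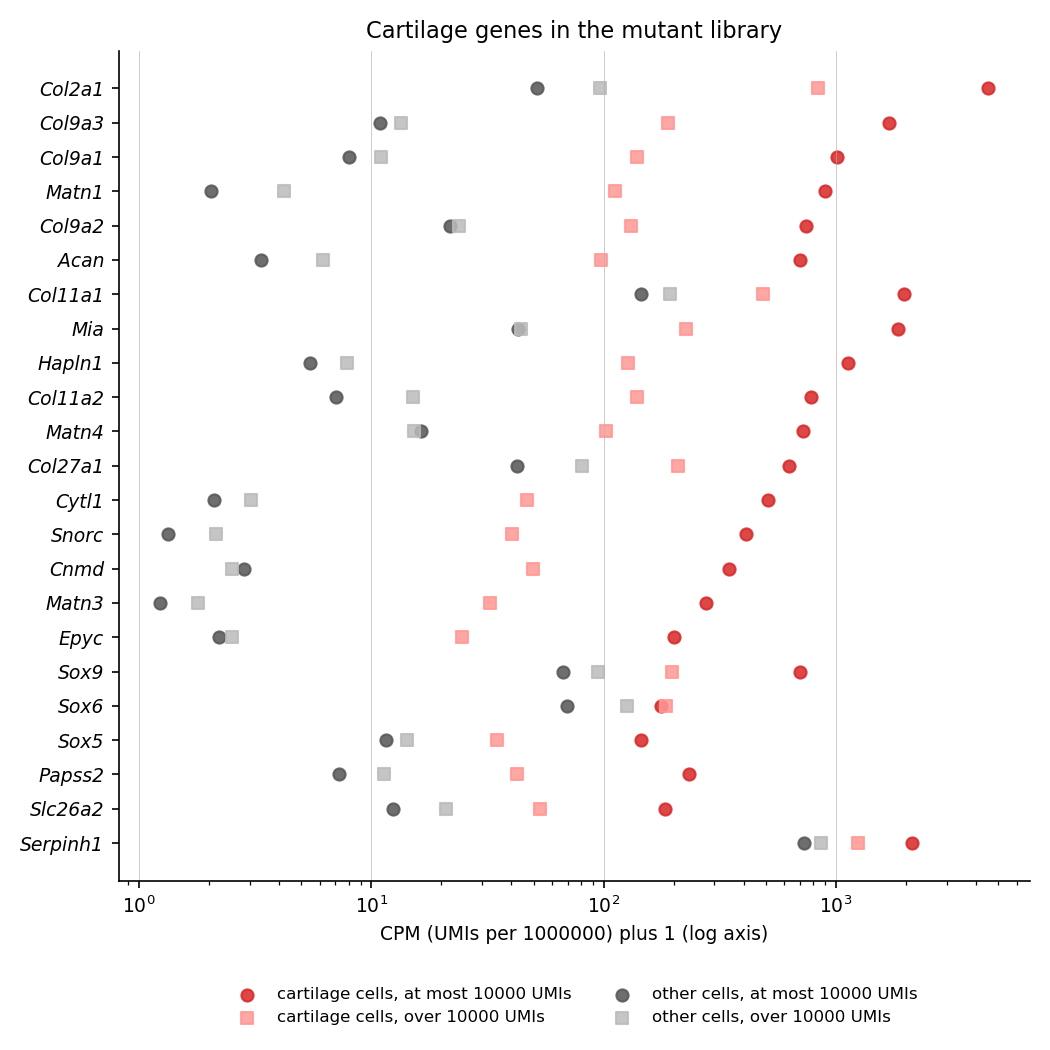
CPM plus 1 on a logarithmic axis for 6 gate genes (top) and 17 genes outside the gate, each summed over shallow and deep gated members and shallow and deep other cells of the mutant library. Shallow members are farthest right for every gene except Sox6, where they stand at 176 CPM and deep members at 185 CPM.

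Sox9, Sox5 and Sox6 were all higher in the summed shallow members than in ungated cells. Sox9 (chr11:112782224-112787760, plus strand) had a lowest, median and highest value of 0, 6.06 and 31.1 UMIs per 10000 in shallow members and was found in 94 of the 111. Summed, it stood at 701 CPM (637 to 769), against 197 CPM in deep members and 65.7 CPM in shallow ungated cells (log2 ratio 3.42). Sox5 was found in 53 of the 111 and stood at 144 against 10.6 CPM (log2 ratio 3.77). Sox6, which ungated cells also expressed at 68.3 CPM, was found in 64 of the 111 and stood at 176 CPM (log2 ratio 1.36). Of 18 chondrogenic transcription factors 10 reached 50 CPM, 5 were at least 2-fold higher and 2 lower: the other higher genes were Foxc1 and Nfatc2, and the lower ones Arid5b and Creb5. The list median was 0.85, and 3 of the 10 reached 50 CPM only in the members and 2 only in the ungated cells. Against osteoprogenitor, tendon-like and perimysial cells of the same depth, gates described below, the median was 2.37, 0.18 and 0.28. Sox9, Sox5 and Nfatc2 were at least 2-fold higher than in each gate, and Foxc1 was not 2-fold higher than in perimysial cells. Barx1 and Creb5 were lower than in tendon-like and perimysial cells, Arid5b lower than in perimysial cells, and none lower than in osteoprogenitors.

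Genes that make the sulfated chains of the matrix were higher or within 2-fold. Of 21 genes for chondroitin sulfate synthesis 12 reached 50 CPM and 9 were at least 2-fold higher, none lower, with a list median log2 ratio of 2.62, and 10 of the 12 reached 50 CPM only in the members. Papss2, which makes the sulfate donor, stood at 231 CPM in shallow members against 6.29 in shallow ungated cells. Slc26a2, the sulfate importer, stood at 182 against 11.4 CPM. Ugdh, which supplies the glucuronic acid of the chain, stood at 279 against 61.2 CPM. The machinery that folds and exports collagen was higher by less: of 33 genes 27 reached 50 CPM, 17 were at least 2-fold higher and none lower, and the list median was 1.31. Of the 27, 16 reached 50 CPM in ungated cells, and 9 of these 16 were at least 2-fold higher. Serpinh1, the collagen chaperone, was found in all 167 members and stood at 2131 CPM in shallow members, 1244 in deep ones and 727 in shallow ungated cells. Plod2, a lysyl hydroxylase, stood at 246 against 54.0 CPM. In deep members the count at least 2-fold higher was 0 of 22 for this list and 1 of 5, Slc26a2, for the sulfate list.

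A pair of the leading genes house microRNAs of cartilage. Wwp2, a ubiquitin ligase gene (chr8:107436365-107558595, plus strand), stood at 766 CPM in shallow members against 35.5 CPM in shallow ungated cells, and Col27a1 (chr4:63214004-63334991, plus strand) is described above. The sequence of miR-140-3p lies within Wwp2, in an intron of 3 of its 11 annotated transcripts and in an exon of 1, and both miR-455 strands lie in an intron of 4 of the 7 Col27a1 transcripts. These libraries capture polyadenylated RNA and did not measure mature microRNAs. Their sequences, from RefSeq on GRCm38.p6 and all on the plus strand, are shown because their host transcripts mark the cells. Capitals mark the seed, bases 2 to 8, and the seeds of the 3 sequences differ.
mmu-miR-140-3p at chr8:107551288-107551308: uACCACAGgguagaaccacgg
mmu-miR-455-5p at chr4:63256867-63256888: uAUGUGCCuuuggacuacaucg
mmu-miR-455-3p at chr4:63256904-63256924: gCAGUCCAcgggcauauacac
Promoter windows of 300 bases from the same source were searched on both strands for the SOX core letters ACAAAG and ACAATG, and no position can match both. Of the 31 gate and leading genes 23 had a window, and 2 of their 29 windows held a match, in Sorbs2 and Kazald1, against 28.6% of all 32851 windows. The windows are short, and enhancers were not searched.

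Growth factor pathways entered the profile through a few members each. Of 19 FGF pathway genes 6 reached 50 CPM and 3 receptors were at least 2-fold higher, with Fgfr3, which restrains chondrocyte division, at 150 CPM (121 to 184) against 8.44, Fgfr2 at 91.0 against 30.5 and Fgfrl1 at 55.9 against 6.73. Of 24 BMP pathway genes 10 reached 50 CPM, 4 were higher and none lower, namely Gdf10 (236 against 17.8 CPM), Bmp5, Bmp2 and the antagonist Chrdl1. In the WNT list 2 of 7 genes were higher, Fzd9 at 98.96 against 4.10 CPM and Sfrp1, and 3 were lower (Frzb, Sfrp2 and Dkk2). Of 15 hedgehog genes 4 reached 50 CPM, none was higher and Foxf2 was lower. The list medians were 0.97 for FGF, 0.91 for BMP, -0.16 for WNT and -0.11 for hedgehog genes. Only in the members did 4 of the 6 FGF, 4 of the 10 BMP and 2 of the 7 WNT genes reach 50 CPM. Among the genes that reached it in ungated cells, 0 of 2 FGF, 0 of 6 BMP and 1 of 5 WNT genes (Sfrp1) were at least 2-fold higher. Against osteoprogenitors of the same depth, a gate described below, the medians were 1.59 for FGF, 1.11 for BMP and 1.36 for WNT genes. Against tendon-like cells they were -0.44, 0.34 and -0.41, and against perimysial cells -0.32, 0.60 and -0.39. In both of these the 3 receptors were higher, Spry1 and Dusp6 were lower and Bmp2 was not 2-fold higher. Bmp4 was lower than in tendon-like cells, and Sfrp1 was not 2-fold higher than in perimysial cells.

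Of 21 TGF-β pathway genes 4 reached 50 CPM in shallow members or their comparison, and 1, the inhibitory Smad7, was at least 2-fold higher, at 73.4 against 25.7 CPM, so that it reached 50 CPM only in the members. Against tendon-like cells of the same depth, a gate described below, 5 of 7 genes of the list were lower (Tgfb2, Tgfb3, Ltbp1, Skil and Pmepa1) and none was higher. Of all tested genes 11.4% were lower in that comparison. Against osteoprogenitors 1 of 3 was higher (Smad7) and none lower, with a median of 0.79. Against perimysial cells 1 of 5 was higher (Smad7) and 2 were lower (Tgfb3 and Skil), with a median of -0.79. Tgfbr1, the gene deleted by Osr2-Cre, had UMIs in 26.1% of shallow members, with a lowest, median and highest of 0, 0 and 4.33 UMIs per 10000, and stood at 51.1 CPM (34.9 to 72.1) against 44.8 CPM in shallow ungated cells. Counts at the 3′ end of the transcript do not show whether a floxed exon was removed. Osr2, the driver gene, had UMIs in 11 of the 111 shallow members (25.5 CPM, 14.6 to 41.5, against 91.6 CPM), and in 44 of the 56 deep members, against 26.5% of shallow and 55.3% of deep ungated cells. Most shallow members thus had no detected Osr2 at this depth, and past expression was not measured.

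Some positional genes of the palatal mesenchyme were lower in shallow members than in pooled ungated cells, a direction partly set by the 50 CPM minimum. Of 43 cranial patterning genes 11 reached 50 CPM, none was higher and 8 were at least 2-fold lower in shallow members: Osr1, Osr2, Pax9, Meox2, Twist1, Twist2, Prrx2 and Meis2. The list median was -1.67 in shallow members and 0.26 in deep ones, where 0 of 14 genes passed 2-fold either way. Pax9 stood at 19.2 against 88.6 CPM and Meox2 at 12.8 against 104 CPM. Prrx1, a general mesenchymal factor, remained at 255 against 363 CPM. Osteoprogenitors of the same depth, a gate described below, were low as well and had Osr2 at 13.6, Pax9 at 16.1 and Meox2 at 25.5 CPM, and against them 3 of 7 genes of the list were lower (Dlx5, Prrx2 and Irx3) and Six2 was higher, with a median of -0.52. Against tendon-like cells 11 of 14 genes were lower (median -1.54) and against perimysial cells 8 of 13 (median -1.36), with none higher. Of the 11 genes in the first comparison 7 reached 50 CPM only in the ungated cells. The 14 Hox genes listed, markers of axial levels behind the head, were at 0 in all 167 members. In shallow members 3 UMIs would be 4.79 CPM. Hox genes summed to only 1.45 CPM in shallow ungated cells and to 0 in each of the 3 mesenchymal gates described below. Their absence was thus not particular to the members. T and Noto, markers of notochord, another source of type II collagen, were at 0 in the members as well, although Cd24a from that list stood at 573 CPM in shallow members against 216.

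Fibrous and joint tissue genes did not follow the cartilage genes. Of 18 genes of perichondrium and joint 11 reached 50 CPM, Col14a1 was at least 2-fold higher in shallow members and Col1a1, Col3a1 and Thbs2 were lower, with a list median of -0.65. Col1a1, the main collagen of bone and fibrous tissue, was found in 46.8% of shallow members and stood at 455 CPM against 1241 CPM in shallow ungated cells. In deep members it was found in 98.2% and stood at 2069 against 1560 CPM. Of 12 osteoblast genes 3 reached 50 CPM in the shallow comparison and Col1a1 and Ibsp were lower, whereas Runx2, which chondrocytes and osteoblasts share, stood at 86.2 against 83.5 CPM. Of 9 tendon genes 1 of 2 was higher (Egr1, an immediate early gene), and of 8 perimysial genes 1 of 4 was higher (Islr) and 2 were lower. Egr1 was within 2-fold of the level in each of the 3 mesenchymal gates described below, and Islr within 2-fold of that in perimysial cells.

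Markers of other lineages were lower in shallow members than in shallow ungated cells, which hold those lineages while the gate removed cells with Epcam, Cdh5, Tyrobp or Myog. Summed epithelial markers came to 7.98 CPM against 213 in shallow ungated cells, myeloid markers to 11.2 against 210, neuronal markers to 11.2 against 449.6 and myogenic markers to 12.8 against 123. Their most abundant genes were Krt14, Lyz2, Map2 and Tnnt1. Endothelial markers, led by Egfl7, came to 33.5 against 157 CPM, and to 17.0 CPM in osteoprogenitor, 25.9 in tendon-like and 61.7 in perimysial cells, the gates described below. Erythroid transcripts, led by Hbb-bs, came to 466 CPM in shallow members, 6863 in shallow ungated cells and 4120 in deep members.

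The abundant genes that were lowest in shallow members included cytoskeletal and loose mesenchymal ones. Tmsb4x, an actin-binding peptide, stood at 799.7 against 4205 CPM, Tuba1a, a tubulin, at 136 against 511 CPM, Ptn at 362 against 1241 CPM and Col3a1 at 196 against 616 CPM. In deep members Tmsb4x was at 1545 against 3316 CPM, whereas Col3a1 was at 758 against 614 CPM, on the other side of its comparison. H19, a long noncoding RNA, was among the abundant genes on the higher side (4935 against 1603 CPM), with the growth factor gene Igf2 (1354 against 512 CPM) and Peg3 (1139.7 against 426 CPM). Others were Sorbs2, a cytoskeletal adaptor (447 against 13.8 CPM), Mgp, an inhibitor of mineralisation (736 against 114 CPM), Cthrc1 (603 against 84.5 CPM), Itm2a (1055 against 322 CPM) and the transcription factor Klf2 (429 against 85.9 CPM).

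The nearest comparison was with 3 other mesenchymal gates of the mutant library, again with no more than 10000 UMIs per cell: 165 osteoprogenitor cells (Sp7 at least 2 UMIs), 252 tendon-like cells (Scx at least 2) and 126 perimysial cells, fibroblasts around palatal muscle (Hic1 and Ebf2 at least 1 each). Cells of these gates were ungated for cartilage, met 1 of the 3 rules only and had Epcam, Cdh5, Tyrobp and Myog at 0. Against osteoprogenitors 10.9% of 2859 genes were at least 2-fold higher in cartilage cells and 6.79% lower, against tendon-like cells 6.9% and 11.4% of 3116, and against perimysial cells 7.7% and 12.1% of 3089. The same 13 cartilage matrix genes were higher than in each of the 3 gates. Of the collagen folding genes 7 of 30 were higher and 2 lower against osteoprogenitors, 13 of 27 higher against tendon-like and 12 of 27 higher against perimysial cells, and the difference between these numbers was not tested.

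The lowest genes against osteoprogenitors included bone genes. That gate was set by Sp7, the osteoblast factor, and the genes were picked by this same ratio, so their values are only a description. Ibsp, a bone matrix protein, stood at 52.7 CPM in shallow cartilage cells, from 3 cells of which 1 gave 26 of the 33 UMIs, against 1517 CPM in osteoprogenitors. Ifitm5 stood at 6.38 against 471 CPM and Smpd3 at 22.4 against 836 CPM. Osteoprogenitors had Col11a2 at 67.9 and Fgfr3 at 33.97 CPM, above the other gates, and cartilage cells were 11.5-fold and 4.42-fold higher for these genes. Against tendon-like cells the lowest genes were Igf1 (33.5 against 703 CPM) and Scx, which defined that gate. Sox9 was at 106 CPM in tendon-like cells, 58.3 in perimysial cells and 46.7 in osteoprogenitors, all under the 701 CPM of cartilage cells. Sox6 was at 148 CPM in osteoprogenitors, 106 in tendon-like and 44.6 in perimysial cells, so that the 176 CPM of cartilage cells was within 2-fold of the first and second of these. Perimysial cells carried Cxcl12, a chemokine, at 521 CPM, where cartilage cells had 6.38 CPM. Snorc, Cytl1 and Matn3 were at 0 UMIs in all 3 gates.

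**Figure D4:**
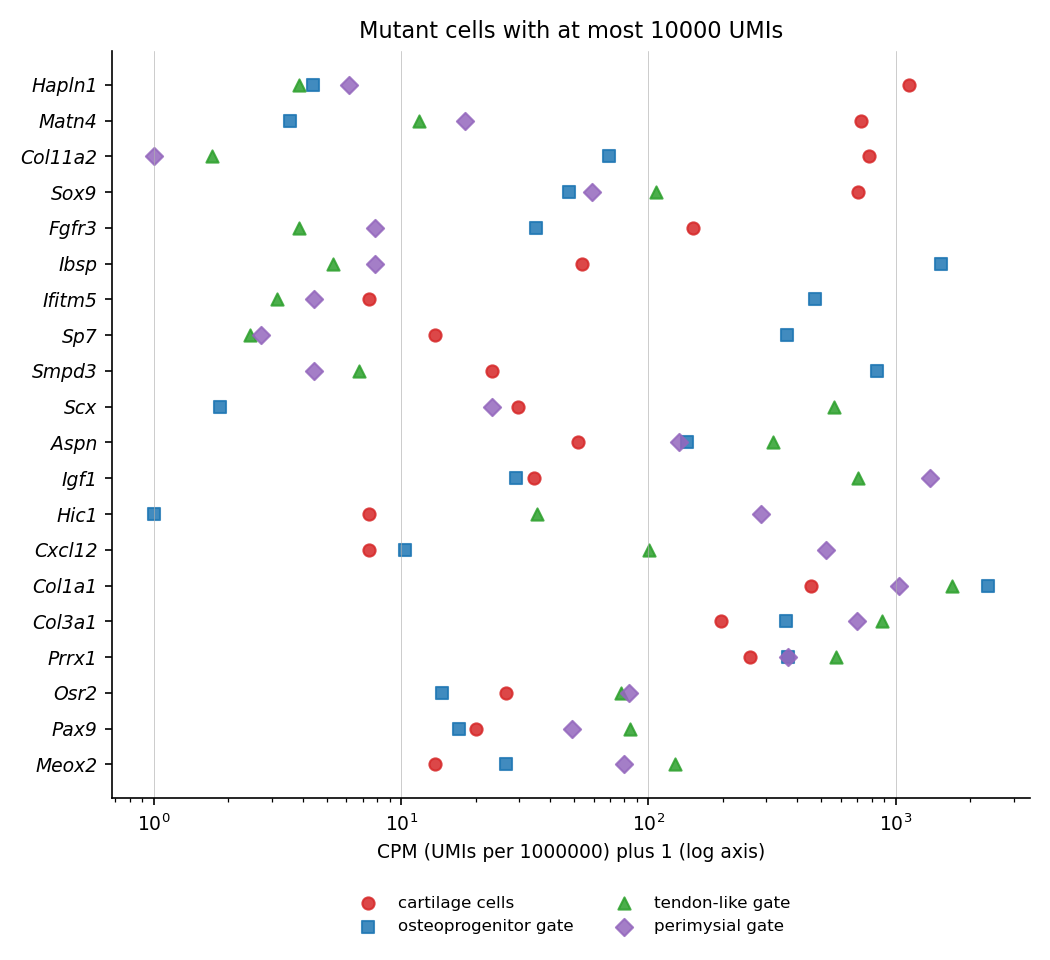
CPM plus 1 on a logarithmic axis for 20 genes in mutant cells with at most 10000 UMIs, summed over 111 cartilage, 165 osteoprogenitor, 252 tendon-like and 126 perimysial cells. Cartilage cells stand far right for Hapln1, Matn4, Col11a2, Sox9 and Fgfr3 and left of the other gates for Col1a1, Col3a1 and Prrx1.

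Signs of hypertrophy were sparse. Col10a1 and Mmp13 had no UMI in any of the 167 members (3 UMIs would be 4.79 CPM in shallow ones), and Ihh had 3 UMIs in 3 shallow members. Panx3, a channel of prehypertrophic chondrocytes and osteoblasts, was found in 19 of 111 shallow members, never with more than 2 UMIs. Thinned to 3500 UMIs, 13.1% of shallow members (7.18 to 21.4) had a UMI of Ihh, Col10a1 or Panx3, against 3.35% of shallow ungated cells and 29.8% of shallow osteoprogenitors. The thinning left out 12 shallow members and 2296 shallow ungated cells, and unthinned the shares were 18.9%, 3.34% and 43.6%. Of 16 maturation genes 4 reached 50 CPM, none was higher than in ungated cells and Ibsp was lower. Pth1r, the parathyroid hormone receptor, stood at 76.6 against 85.1 CPM in ungated cells. Against osteoprogenitors 7 of 7 genes of the list were lower, where 6.79% of all tested genes were. Sp7, which set that gate, is among the 7, and so are the osteoblast genes Runx2, Ibsp and Alpl. The direction was thus partly set by the gate and is no measure of maturation. Against tendon-like cells 1 of 4 was higher (Ibsp) and none lower. Against perimysial cells 2 of 5 were higher (Pth1r and Ibsp) and 1 was lower (Spp1). Of the 380 Ibsp UMIs of the 167 members 347 came from deep members, 105 of them from 1 cell, and 33 from 3 shallow cells. The 38 members of any depth with a UMI of Ihh, Col10a1 or Panx3 had Ibsp at 418 CPM and the 129 without at 94.6 CPM, with median depths of 7973 and 6359 UMIs, and the part of the deep barcodes in this was not tested.

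Cell cycle transcripts were present, but a count of UMIs alone does not show that a cell was dividing. At 3500 UMIs 34.3% of shallow members (34 of 99, 25.1 to 44.6) had 3 or more UMIs over 20 cell cycle genes, against 45.7% (44.1 to 47.2) of shallow ungated cells, and 17 of the 99 had 2 or 3 such UMIs, next to the cut. Unthinned, the shares were 39.6% and 44.3%. With all members the share was 53.5%, against 50.8% of all ungated cells. None of the 10 cell cycle genes that reached 50 CPM passed 2-fold in shallow members. The inhibitor Cdkn1c stood at 1745 against 1485 CPM, and Ccnd2 at 477 against 705 CPM. In the glycolysis list 4 of 12 genes were higher (Pgk1, Pfkl, Hk2 and Bnip3), none lower, with a median of 0.58. Against osteoprogenitors 2 of 12 were higher (Hk2 and Bnip3), with a median of 0.05, against tendon-like cells 8 of 12 and against perimysial cells 9 of 12, with none lower in these 3 comparisons.

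Shallow members varied among themselves along the gate share, which ran from 15.4 to 252 UMIs per 10000. The 37 cells with the lowest share (up to 73.7 per 10000) and the 37 with the highest (from 116) had near-equal depth, with median UMIs of 5467 and 5338. Between them 14.3% of 3072 genes were at least 2-fold higher in the low cells and 10.9% in the high cells. The share itself comes from the gate genes of the same cells, so the genes that follow it are only described. Col1a1 stood at 1029 CPM in the low cells and 29.4 in the high cells. Col3a1 (418 against 34.3), Lum (380.5 against 44.1), Sfrp2 (329 against 19.6) and Nrp2 (221 against 4.90) ran the same way, and these are genes known from fibrous and loose mesenchyme. In the opposite direction ran Snorc (103 against 691), Slc26a2 (56.4 against 304), Plod2 (84.6 against 382), Papss2 (89.3 against 367) and Fgfr3 (61.1 against 235). Hapln1 was at 442 CPM in the low cells, far above the 4.47 CPM of shallow ungated cells, and at 1641 in the high cells. Sox9 ran from 399 to 999 CPM. Of the 37 low cells 11 had no Hapln1 UMI, 32 had a Col1a1 UMI and 22 had both transcripts, against 0, 5 and 5 of the 37 high cells. Gdf5, a joint marker, was found in 11 of the 111 shallow members. With 37 cells on each side a few cells can set a value, and a mix of different cells was not told apart from cells that carry both sets of genes.

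**Figure D5:**
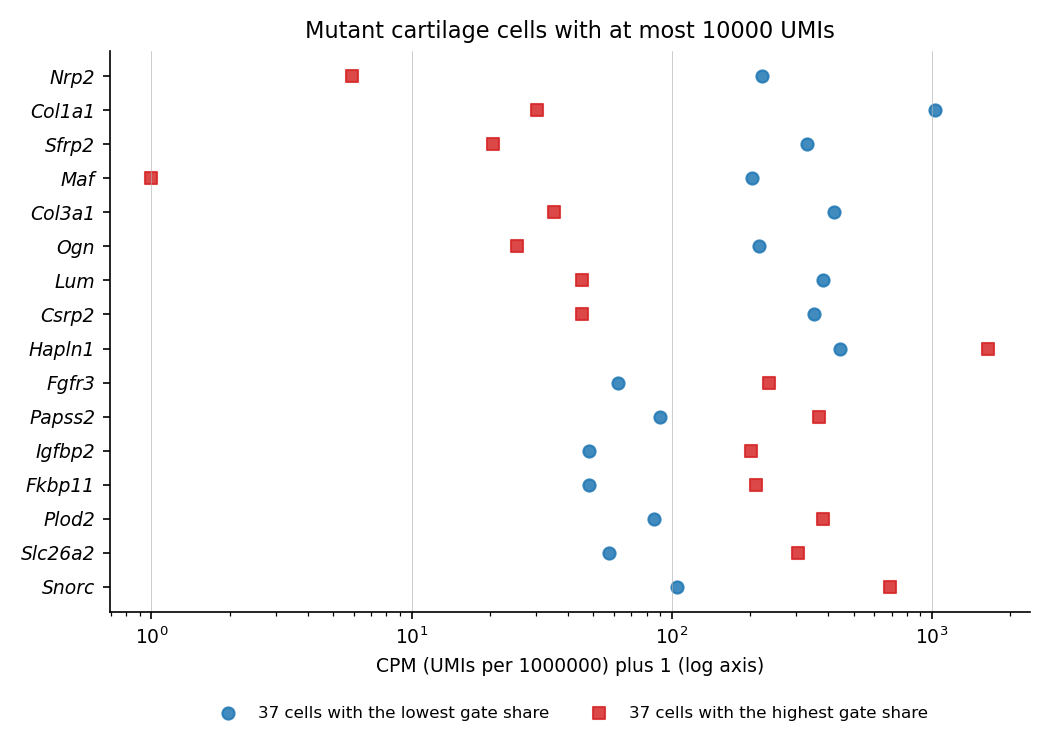
CPM plus 1 on a logarithmic axis for the 8 genes leading each way by the naming rule, summed over the 37 shallow cartilage cells with the lowest share of gate UMIs and the 37 with the highest. Col1a1 and the other genes of the upper rows stand farther right in the low cells (1029 against 29.4 CPM), and Snorc and the other genes of the lower rows in the high cells (691 against 103 CPM).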

How the data were processed

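The authors deposited raw UMI counts per gene and barcode for each library, as filtered matrices. The submitters' processing notes name Cell Ranger 3.1.0 and the build mm10, the file headers Cell Ranger 4.0.0. Barcodes were kept at 500 or more genes and at most 10% mitochondrial UMIs. Counts were summed over cells, divided by the summed total (CPM) and compared as log2 ratios where 1 side had 50 CPM, with 0 counts set to 3 UMIs over the group. Intervals are exact Poisson or Clopper-Pearson at 95% and cover counting error only. No test was run, since cells are not replicates. The members, gene lists and other gates were chosen with earlier results of these data known, the division at 10000 UMIs and the share of 30 per 10000 after seeing these counts. Gene names and positions came from GENCODE M21 (32158 of 32285 genes matched).

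Genes were named by rank: the 25 highest ratios (200 CPM and 20% of members), the 8 lowest (500 CPM in the other cells, without haemoglobin genes), 5 per other gate each way, 5 with a maturation UMI, and members of the lists. The same ranks for shallow members, and 8 genes each way between the cells of lowest and highest gate share, were added after seeing the data. Counts of genes that overlap an annotated neighbour on the same strand (Mia, Fgfr2, Sox5, Ugdh, Creb5, Bmp5, Meox2, Prrx1, Col3a1, Igf2, Nrp2, Smpd3 and Ifitm5) are uncertain. Doublets were not removed. Scrublet in scanpy 1.11.5 marked 0, 1 and 1 barcodes by its own threshold and so was used as a ranking, leaving out the highest 0.8% per 1000 barcodes. Alternatives were other gate minimums, 200 genes without a mitochondrial limit, thinning, a mean over cells, TMM factors (edgeR 4.0.16, R 4.3.3), other CPM minimums and other comparison cells. Python 3.11.15, numpy 2.4.6, scipy 1.17.1 and pandas 2.3.3 were used. The ratio step was tested on simulated data.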

Additional observations from a re-analysis of the deposited data

How the results depend on the processing

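The mutant share stayed above both controls under all gate settings. In control 1, control 2 and the mutant it was 0.614%, 0.471% and 2.58% with a support minimum of 1 UMI, 0%, 0% and 1.57% with 10, and 0%, 0% and 1.25% on barcodes thinned to 2000 UMIs. With 30 gate UMIs per 10000 it was 0.0945%, 0% and 1.44% in the same order. A Col2a1 minimum of 10 gave 0.0945%, 0.0523% and 1.66%, and a minimum of 3 gave 0.378%, 0.183% and 2.47%. The limit of 10000 UMIs gave 0.0945%, 0.0785% and 1.37%. The mutant minus the control mean, 1.86 percentage points, became 2.19 with a Col2a1 minimum of 3, 1.25 thinned, 1.28 with at most 10000 UMIs and 1.40 with 30 per 10000, and 1.82 to 1.90 without either control replicate. No paired analysis was possible because there is 1 mutant library and no test.

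Counts of genes moved with the setting. Against 73 higher and 40 lower, a support minimum of 10 gave 113 and 68, 30 gate UMIs per 10000 gave 188 and 213, a mean over cells 159 and 117, at most 10000 UMIs 240 and 261, no CPM minimum 7335 and 1237, and 200 CPM 23 and 8. Over 10000 UMIs 18 were higher, and against the other mesenchymal gates 13 were lower. None of the 39 genes in the gate or ranked highest or lowest reversed under the 12 alternatives that give a ratio, which shows no stability, since the gate or their ratio in these cells chose them. The share with 3 or more cell cycle UMIs, 53.5%, was 32.9% at 1750 UMIs and 34.3% with at most 10000 UMIs. The maturation share of 12.3% was 22.8% unthinned and 2.99% at 1750 UMIs. Fewer UMIs per cell lower both shares by construction, and for the other differences the cause was not tested.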
